A study of Mus musculus with 6 samples.

Results

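The mitochondrial ribosomal proteins were followed in mouse gastrocnemius muscle as the 76 genes whose platform symbol is Mrpl or Mrps followed by a digit, 47 named for the large subunit and 29 for the small subunit. They were picked by symbol, from probe sets that carry a single symbol, out of 18193 genes on the array. The family itself was taken up with earlier results of these data known. Where a gene had several probe sets, the 1 with the brightest mean log2 signal over the 6 arrays stood for it. All 76 passed the filter on low signal that kept 11526 genes, and none had a value at the floor, so no member was selected by where it was high. Mrpl30 and Mrpl53 appear only on probe sets that also carry another gene's symbol and were not counted as members.

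The RNA came from male C57BL/6J mice and was hybridised to 6 arrays, each a pool of animals, so that every combination of 3 diets and 2 fasting times had 1 pool. The animals were 6 weeks old at the start and received 1 diet each for 15 weeks: a Control diet with 10% of its energy from fat, a high fat diet (HF) with 60%, or the high fat diet with 0.023% by weight of sodium ferrous citrate and 0.2% of 5-aminolevulinic acid phosphate (HF+SFC+ALA). The tissue was taken after 4 h or 24 h of fasting. The sample labels give an age of 21 months, which does not match the feeding scheme, and no result here uses age. How many animals formed a pool is not stated in the labels or the design text. No pool was repeated, so the p-values below measure only the spread that an additive model of diet and fasting leaves among the pools. In pooled whole muscle, fewer cells of a type and less RNA per cell cannot be told apart.

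Mitochondria carry their own ribosome, which translates the membrane subunits of the respiratory chain that mitochondrial DNA encodes. Its RNA parts come from that DNA, whereas every protein of its large and small subunits is encoded in the nucleus, made in the cytosol and imported. Many of these proteins have bacterial counterparts and others, such as Mrpl45 and Mrps30, were added during the evolution of mitochondria. Their genes are typical targets of the nuclear respiratory factor NRF1 and of ETS family factors such as GABPA, which also act on genes of the respiratory chain.

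Promoter windows of 300 bases, from 250 before to 50 after the annotated start, were found for 67 of the 76 genes in the RefSeq set (build GRCm38.p6). For 3 of these genes there were several windows, and a motif in any of them counted for the gene. The palindromic NRF1 consensus, on either strand, lay in a window of 12 of the 67 genes (17.9%), against 5.19% of 27025 genes with a window. The ETS motif CCGGAAG, searched like all 4 on both strands, lay in 25 (37.3%, against 9.93% of all genes). The YY1 consensus lay in 5 (7.46%, against 0.755%). The estrogen-related receptor motif TCAAGGTCA lay in 0 of 67 (0.466% of all genes). At least 1 of the 4 motifs was found for 36 genes (53.7%, against 14.9%). Among large subunit genes, 9 of 41 held the NRF1 motif and 14 held the ETS motif, and among small subunit genes 3 and 11 of 26. The 250 bases upstream of the start are printed for the members with the widest range of signal over the pools, Mrpl41 (chr2:24975099-24975348, minus strand) and Mrpl45 (chr11:97315466-97315715, plus strand), 5′ to 3′, with NRF1 motifs in capitals.
Mrpl41: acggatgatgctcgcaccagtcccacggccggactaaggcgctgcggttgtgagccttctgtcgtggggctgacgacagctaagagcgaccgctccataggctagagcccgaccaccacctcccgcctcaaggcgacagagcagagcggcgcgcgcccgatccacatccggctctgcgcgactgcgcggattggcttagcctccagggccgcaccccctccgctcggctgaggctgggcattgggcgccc
Mrpl45: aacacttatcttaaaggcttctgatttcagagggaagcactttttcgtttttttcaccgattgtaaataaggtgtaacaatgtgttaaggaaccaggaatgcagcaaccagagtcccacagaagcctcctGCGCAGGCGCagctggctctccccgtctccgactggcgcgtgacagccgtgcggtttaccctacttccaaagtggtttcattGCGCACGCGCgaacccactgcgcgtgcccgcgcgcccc
The Mrpl41 window held none of the 4 motifs. The Mrpl45 window held 3 NRF1 motifs, 2 of them in the bases printed and the other downstream of the start. The genes of Mrpl46 and Mrps11 lie head to head on chromosome 7, with annotated starts 42 bases apart and windows that share 141 bases. A motif match is a description of letters and not a bound site.

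The median signal of the arrays was 63.2 to 69.7, and 68.9% to 71.6% of probe sets lay above the floor. As a measure of RNA integrity, actin control probe sets gave a 3′ over 5′ ratio of 1.52 on the HF diet at 4 h, apart from the other 5 pools at 1.08 to 1.22, and GAPDH gave 0.814 to 0.863. All 9 skeletal muscle markers (such as Ckm, Acta1 and Myh4) were kept, with a summed signal of 388093 to 449176, which fits the labelled tissue. All 6 adipocyte markers measured were kept as well, with a summed signal of 27802 to 42161.

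Signals of the 76 genes moved little over the 6 pools. The ratio of the highest to the lowest pool had a median of 1.21-fold for the members (0.28 on the log2 scale), against 1.42-fold (0.50) for all genes kept and 1.28-fold (0.36) for the 5113 genes whose mean signal lies within the members' span. Only Mrpl41 and Mrpl45 reached 1.5-fold (2.63% of members, against 40.2% of all genes kept and 17.0% of genes in that span). Subunits of oxidative phosphorylation (70 kept) had a median range of 1.14-fold, below that of the mitochondrial ribosomal proteins. A list of cytosolic ribosomal proteins (27 kept) had one of 1.11-fold, also below it. That list left out genes named Rps followed by digits alone, so it does not stand for the whole cytosolic ribosome. The share that reached 1.5-fold was 1.43% and 11.1% in these 2 lists, the latter above that of the members. The median range was 1.20-fold for the large subunit and 1.22-fold for the small subunit. It was likewise 1.20-fold for the 47 members with a bacterial homologue and 1.23-fold for the 29 without one. These ranges are descriptions, without a test.

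**Figure D1:**
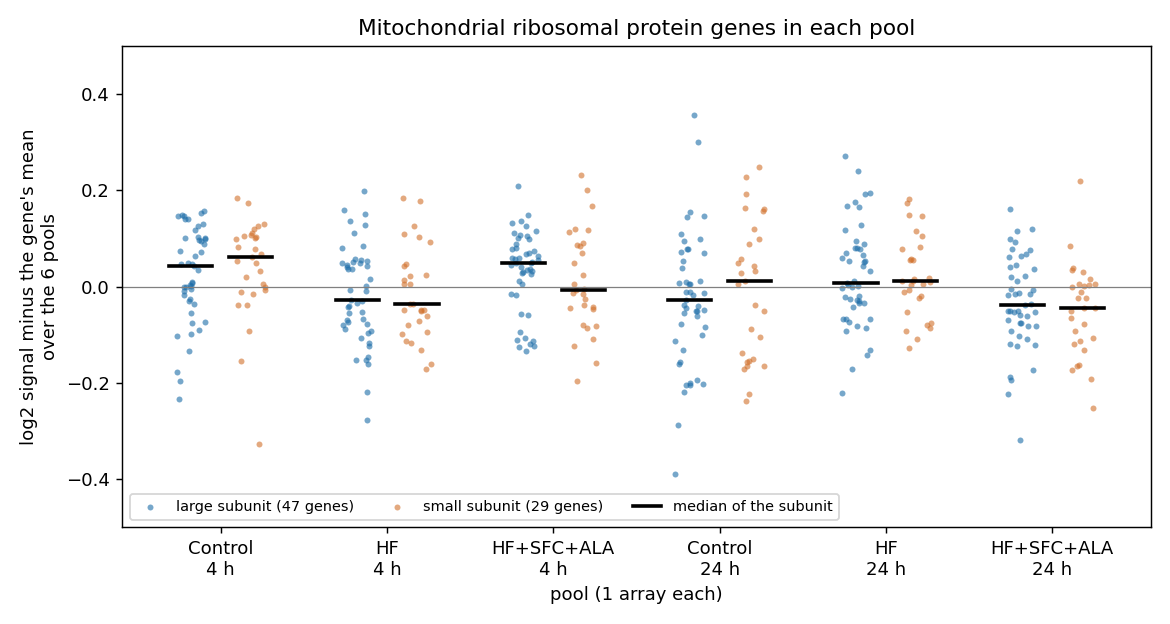
Log2 signal of each of the 76 genes minus that gene's mean over the 6 pools, 1 point per gene and pool, with large and small subunit genes shown apart and a bar at each median. Pool medians lie between -0.041 (HF+SFC+ALA at 24 h) and 0.048 (Control at 4 h) over all members, and the clouds of points overlap in every pool.

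The most even signals came from proteins of several roles. Mrpl10, which anchors the L7/L12 stalk, read 1144 (Control), 1135 (HF) and 1198 (HF+SFC+ALA) at 4 h and 1138, 1211 and 1185 at 24 h. Its highest and lowest pools were 1.07-fold apart. Mrps18c, 1 of 3 paralogs of a bacterial small subunit protein, ranged from 4016 to 4300, also 1.07-fold. Mrpl24, at the polypeptide exit tunnel, ranged from 3694 to 4006, or 1.08-fold. Both HF+SFC+ALA pools of Mrpl24 (3864 and 4006) lay above its other 4 pools (3694 to 3773).

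Other parts of the ribosome varied somewhat more. In the stalk, Mrpl11 ranged from 3869 to 4479, and Mrpl12, the stalk protein that also binds the mitochondrial RNA polymerase, from 5920 to 7523. At the exit tunnel Mrpl22 ranged from 3451 to 3812 and Mrpl23 from 7658 to 8987. Mrps12, the decoding centre protein, ranged from 3325 to 3704. Of the other Mrps18 paralogs, Mrps18b ranged from 1666 to 2269 and Mrps18a, which sits in the large subunit despite its name, from 3342 to 4175. Mrps30, also a large subunit protein, ranged from 1748 to 2219. Mrps36, now known as a component of the 2-oxoglutarate dehydrogenase complex, ranged from 3775 to 5175, with its highest signal in the HF+SFC+ALA pool at 4 h. Members whose human counterparts are linked to inherited mitochondrial disease (Mrps2, Mrps7, Mrps14, Mrps16, Mrps22, Mrps28, Mrps34, Mrpl3, Mrpl12, Mrpl24, Mrpl39, Mrpl44 and Mrpl50) had ranges from 1.08-fold (Mrpl24) to 1.31-fold (Mrpl3).

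The first comparison asked how a 24 h fast differed from a 4 h fast with diet held in the model. Mrpl41 rose after the longer fast and no other member passed the test: 1 of 76 was called (limma, Benjamini-Hochberg adjusted over all 11526 genes, threshold 0.05), against 2.41% of all genes kept (1.49% higher and 0.92% lower). Without adjustment 9 members had p under 0.05 (4 higher and 5 lower), or 11.8% of members against 17.7% of all genes kept. The median difference of the members was -0.029 on the log2 scale, against 0.0083 for all genes kept, and 29 of 76 were positive. It was -0.073 without either HF pool, -0.0051 without either Control pool, 0.0056 without either HF+SFC+ALA pool and -0.056 with arrays centred on the median, so its sign depended on the pools used. For 75 of the 76 the 95% interval of the difference lay inside 1.5-fold in either direction, Mrpl41 being the exception. The same held for 66.5% of all genes kept and 98.6% of oxidative phosphorylation subunits. All genes kept reach lower signals than the members, and their median SE was 0.12, against 0.077 for the members. In 5 members all 24 h pools lay above all 4 h pools and in 10 below, which is 19.7% of members against 18.9% of all genes kept (10.6% higher and 8.36% lower). In this comparison 2 of 3 smooth muscle markers, 1 of 5 fibroblast markers and the 1 lymphocyte marker kept passed as lower. The 6 adipocyte markers had a median difference of -0.74, with 2 positive, and none passed (lowest limma adjusted p = 0.0565). Without adjustment 5 of them had p under 0.05 (1 higher and 4 lower), though the 4 h and 24 h pools of each overlapped. The part of these cells in the members' values was not tested.

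Mrpl41, a large subunit protein without a bacterial homologue that is also known as a partner of Bcl-2, had signals of 2270 (Control), 2201 (HF) and 2444 (HF+SFC+ALA) at 4 h and of 3416, 3149 and 2743 at 24 h. All 3 pools at 24 h lay above all 3 at 4 h, with the smallest gap on the HF+SFC+ALA diet. The difference was 0.42 ± 0.092 on the log2 scale (SE, 1.34-fold, 95% interval 0.22 to 0.63, limma adjusted p = 0.0491), and it was positive in 3 of 3 pairs of pools, at 0.59 (Control), 0.52 (HF) and 0.17 (HF+SFC+ALA). A second probe set above the filter differed by 0.31 in the same direction. The call lay close to the threshold. It was kept in 2 of 10 other settings of the analysis and in 2 of 6 fits that left out 1 pool. Those 2 fits were without the Control pool at 4 h or at 24 h. Leaving out either pool of a diet removes that diet's pair from the fasting difference, so the 2 fits are not independent. The limma adjusted p ran from 0.0275 to 0.414 over these 16 fits, with a difference of 0.24 to 0.55.

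Lower signals after 24 h were seen in several members without passing the test. Mrps24, a small subunit protein, read 4984, 4996 and 4933 at 4 h (Control, HF, HF+SFC+ALA) and 4175, 4399 and 4394 at 24 h, so the groups did not overlap. Its difference was -0.20 ± 0.065 (limma adjusted p = 0.15, negative in 3 of 3 pairs), while its second probe set gave 0.033. Mrpl18, a protein of the central protuberance of the large subunit, read 6181, 6344 and 6244 at 4 h and 4735, 5611 and 5712 at 24 h, again without overlap. Its difference was -0.23 ± 0.072 (limma adjusted p = 0.141, negative in 3 of 3 pairs). Mrpl12 differed by -0.21 ± 0.076 (adjusted p = 0.193 in the same fit).

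Mrpl45, which tethers the ribosome to the inner membrane at the tunnel exit, read 1558, 1579 and 1645 at 4 h and 1087, 1519 and 1243 at 24 h. All 24 h pools lay below all 4 h pools, but the HF pair differed by only -0.056 on the log2 scale, against -0.52 on Control and -0.40 on HF+SFC+ALA. The fitted difference was -0.33 ± 0.10 (limma adjusted p = 0.136, negative in 3 of 3 pairs). Without either HF pool it was -0.46 and passed the threshold, and Mrpl41 then did not. Mrpl21, described like Mrpl45 after its values were seen, differed by -0.24 ± 0.088 (limma adjusted p = 0.207). Mrps22, Mrpl54, Mrpl51, Mrpl33, Mrpl36 and Mrps11 were lower at 24 h in all 3 pairs and did not pass the test.

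Higher signals beside Mrpl41 were small. Mrps17 differed by 0.17 ± 0.067 (limma adjusted p = 0.238) with nearly equal pairs of 0.17 (Control), 0.16 (HF) and 0.17 (HF+SFC+ALA). Mrpl17 differed by 0.17 ± 0.069 (limma adjusted p = 0.234), yet -0.15 and -0.31 came from its other probe sets above the filter. Mrps31, Mrps30, Mrpl38, Mrpl47 and Mrpl15 were higher in all 3 pairs and did not pass the test. The other probe set of Mrpl47 above the filter gave -0.29, and those of Mrpl15 gave -0.065, 0.65, -0.055 and -0.081. In all, 13 members were higher and 17 lower in every pair of pools, or 39.5% of members against 39.4% of all genes kept.

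**Figure D2:**
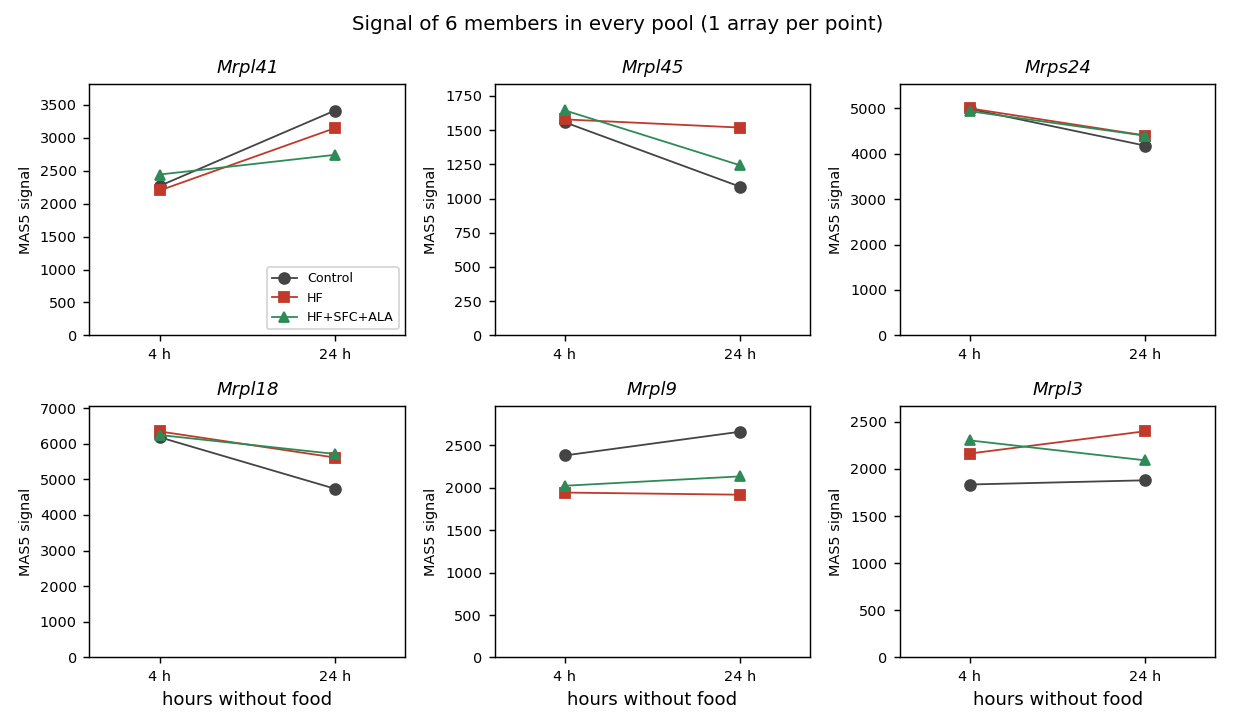
Signal (linear scale) of Mrpl41, Mrpl45, Mrps24, Mrpl18, Mrpl9 and Mrpl3 in each of the 6 pools, 1 point per pool, with the 4 h and 24 h pools of a diet joined. Mrpl41 is higher at 24 h on every diet (2743 to 3416 against 2201 to 2444), and Mrpl9 is highest in both Control pools.

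Between the HF and Control diets no member passed: 0 of 76 by limma with Benjamini-Hochberg adjustment, against 0.902% of all genes kept (0.564% higher and 0.338% lower). Without adjustment 7 members had p under 0.05 (3 higher and 4 lower), against 14.7% of all genes kept. The median difference was -0.016 on the log2 scale, against -0.00020 for all genes, and 34 of 76 were positive. Leaving out a pool moved it to -0.077 (HF, 24 h) and 0.034 (HF, 4 h), and the mean over probe sets gave 0.015. The 95% interval lay inside 1.5-fold for 75 of 76, the exception being Mrpl9. It did so for 56.2% of all genes kept (median SE 0.15, against 0.094 for the members) and 98.6% of oxidative phosphorylation subunits. Both HF pools lay above both Control pools in 15 members and below in 20, or 46.1% of members against 38.7% of all genes kept (19.7% higher and 18.9% lower). In this comparison 3 of 6 adipocyte markers passed the test as higher on HF, and 5 of 6 were higher without overlap. At 4 h and 24 h, the summed signal of all 6 was 27802 and 33827 in the Control pools and 38283 and 42161 in the HF pools. Most of that sum was Fabp4 (21626 and 26207 on Control, 26497 and 31773 on HF). Adipoq read 901 and 577 on Control and 4637 and 4280 on HF, whereas Plin4 read 4864 and 6903 on Control and 5483 and 5138 on HF. Markers of fibroblasts (3 of 5), tendon (2 of 4) and smooth muscle (1 of 3) also passed as higher, and all 7 macrophage markers were higher without overlap though none passed. The part of these cells in the members' values was not tested.

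Mrpl9, the counterpart of a bacterial large subunit protein, read 2381 (Control) and 1943 (HF) at 4 h and 2661 and 1918 at 24 h. Both HF pools lay below both Control pools. The difference was -0.38 ± 0.092 on the log2 scale (1.30-fold lower, 95% interval -0.59 to -0.18, limma adjusted p = 0.106, negative in 2 of 2 pairs). Its remaining probe sets that passed the filter disagreed, at -0.31 and 0.24. Without the Control pool at 4 h the difference was -0.45 and its limma adjusted p was 0.032.

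Mrpl3, a protein near the peptidyl transferase centre, read 1835 (Control) and 2164 (HF) at 4 h and 1880 and 2401 at 24 h, with both HF pools above both Control pools. It differed by 0.30 ± 0.10 (limma adjusted p = 0.224, positive in 2 of 2 pairs), with 0.28 and 0.14 in its other probe sets above the filter. Mrps23 differed by 0.29 ± 0.11 (limma adjusted p = 0.255), but its other probe sets gave -0.12 and -0.17. Mrpl20 differed by 0.26 ± 0.091 (limma adjusted p = 0.247).

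On the lower side Mrps5, a decoding fidelity protein, differed by -0.29 ± 0.12 (limma adjusted p = 0.334), with 0.11, -0.43 and 0.01 in its other probe sets. Mrps18b differed by -0.25 ± 0.096 (adjusted p = 0.273 in the same fit) and Mrpl15 by -0.18 ± 0.077 (adjusted p = 0.322). The other 4 Mrpl15 probe sets above the filter gave 0.11, 0.11, 0.011 and -0.051. The same sign was found in both pairs for 22 higher and 28 lower members, or 65.8% of members against 59.9% of all genes kept. Mrpl58, the peptidyl-tRNA hydrolase that became part of the large subunit, was among the higher ones with 0.20 ± 0.10 (limma adjusted p = 0.397). Mrps11 and Mrpl46, the head-to-head pair, differed by 0.20 ± 0.11 and 0.26 ± 0.13 (limma adjusted p = 0.445 and 0.374).

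**Figure D3:**
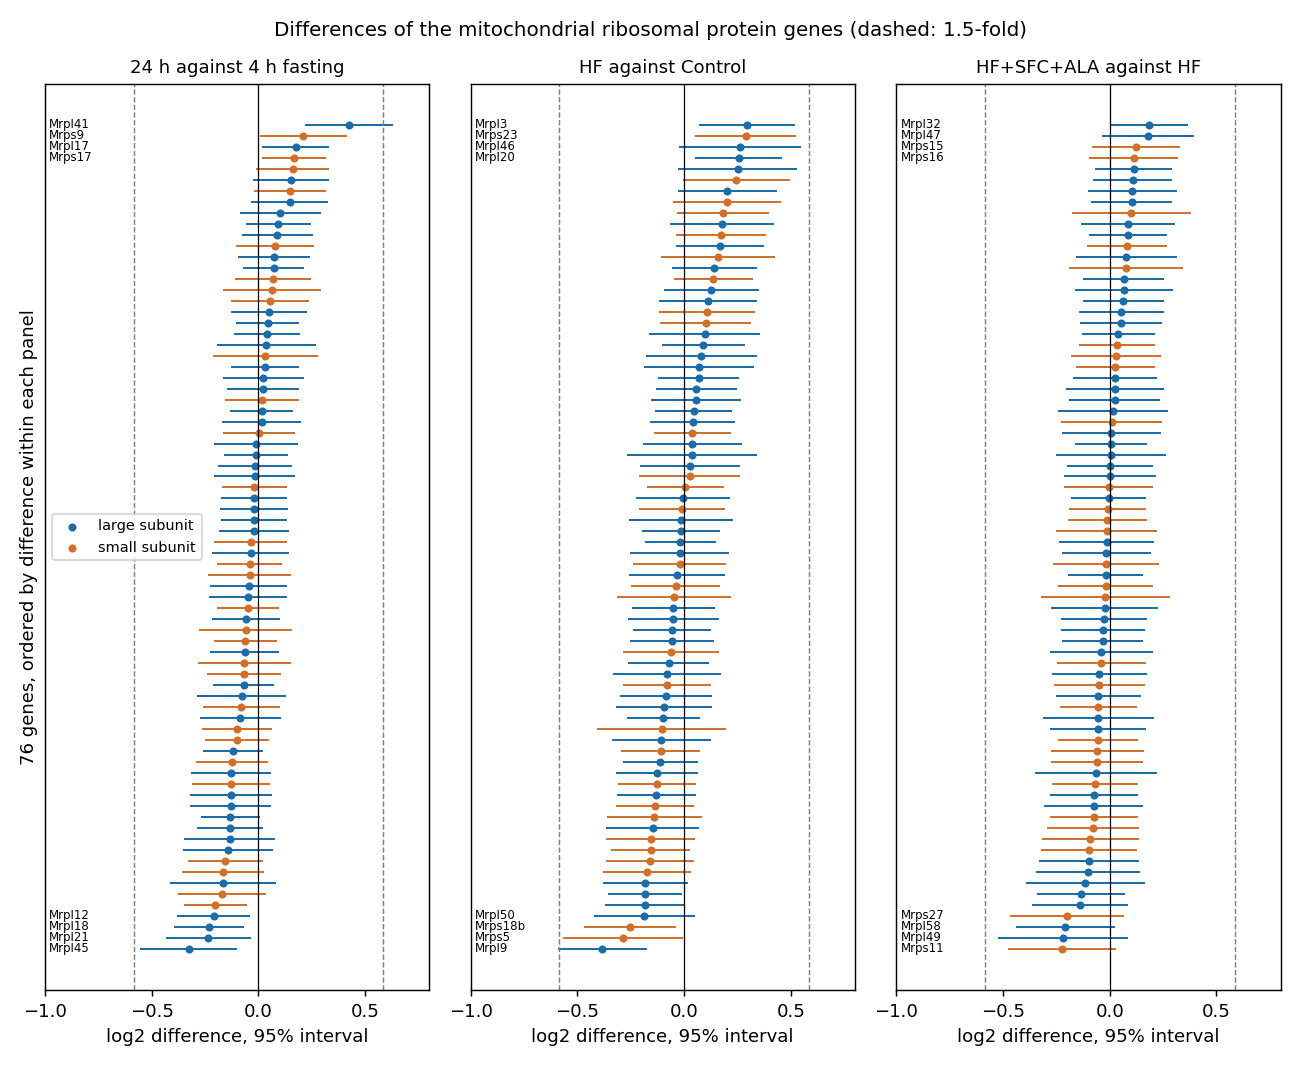
Fitted log2 difference of each of the 76 genes with its 95% interval in the 3 comparisons, ordered within each comparison, large and small subunit genes in separate colours. Nearly all intervals lie inside the dashed lines at 1.5-fold: all but Mrpl41 for fasting, all but Mrpl9 for the HF diet, and all 76 for the supplements.

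Adding sodium ferrous citrate and 5-aminolevulinic acid to the HF diet was followed by no called difference. None of the 76 members passed (limma, Benjamini-Hochberg), nor did any of the 11526 genes (0.0%). Without adjustment 1 member, Mrpl32, had p under 0.05, against 5.08% of all genes kept (585 genes). The median difference was -0.014 on the log2 scale, against -0.0049 for all genes, with 32 of 76 positive. Leaving out a pool moved it to -0.049 (HF, 4 h) and 0.040 (HF, 24 h), and arrays centred on the median gave -0.0004. All 76 intervals lay inside 1.5-fold, against 62.5% of all genes kept and 98.6% of oxidative phosphorylation subunits. The median SE was 0.094 for the members and 0.15 for all genes kept. The groups did not overlap in 10 members higher and 10 lower, or 26.3% of members against 28.9% of all genes kept (13.1% higher and 15.8% lower). Adipocyte markers had a median difference of -1.28, with 5 of 6 lower without overlap. Smooth muscle markers had one of -0.43 (3 of 3 lower without overlap) and fibroblast markers one of -0.41 (2 of 5). None of these markers passed, and the part of these cells in the members' values was not tested.

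Mrpl32, which is processed by a mitochondrial protease before it joins the large subunit, read 3479 (HF) and 3996 (HF+SFC+ALA) at 4 h and 3539 and 3974 at 24 h. Both supplemented pools lay above both HF pools. The difference was 0.18 ± 0.081 (limma adjusted p = 0.97, positive in 2 of 2 pairs). Mrps11 read 1002 (HF) and 901 (HF+SFC+ALA) at 4 h and 953 and 775 at 24 h, a difference of -0.23 ± 0.11 (limma adjusted p = 0.97, negative in 2 of 2 pairs). Its head-to-head neighbour Mrpl46 differed by -0.065 ± 0.13 in that comparison. No member had a limma adjusted p below 0.97. Both pairs had the same sign in 36 members (47.4%, against 50.7% of all genes kept).

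The large subunit was compared with the small subunit by their medians. The median difference of large subunit genes minus that of small subunit genes was 0.020 on the log2 scale for fasting, 0.025 for the HF diet against Control and 0.019 for the supplements. For the HF diet it was 0.082 with the mean over probe sets and 0.091 with only probe sets without a suffix. Over the single pairs of pools it ran from -0.016 to 0.049. With members assigned by structure (Mrps30 and Mrps18a to the large subunit and Mrps36 left out, 49 against 26 genes) it was 0.025, 0.015 and 0.015. Members with a bacterial homologue had medians of -0.021, -0.038 and -0.010 in these 3 comparisons, and those without one -0.048, 0.038 and -0.024. These gaps are descriptions, without a test.

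Within single pairs of pools the members' medians changed sign with diet and fasting. For 24 h against 4 h the median was -0.056 on Control (24 of 76 positive), 0.057 on HF (48 positive) and -0.082 on HF+SFC+ALA (27 positive). For HF against Control it was -0.058 at 4 h and 0.027 at 24 h, and for HF+SFC+ALA against HF 0.032 at 4 h and -0.052 at 24 h. These pairs share pools with each other. For all genes kept, in the same order, the fasting medians were 0.0040, 0.023 and -0.0010 (50.6%, 53.3% and 49.9% positive). Their medians were -0.011 and 0.0046 for HF against Control, and 0.0011 and -0.015 for HF+SFC+ALA against HF. At least 1.5-fold was reached by 1 member (Mrpl41, Control diet) in the fasting pairs, where 12.1% of all genes kept did so, by 0 in the other fasting pairs (10.1% and 8.42% of all genes) and by 0 in the 4 diet pairs. In those, 9.52% and 13.1% of all genes kept did so for HF against Control at 4 h and 24 h, and 7.3% and 7.86% for the supplements.

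Oxidative phosphorylation subunits changed sign in the same pairs. Their median for fasting was -0.0058 on Control, 0.14 on HF (68 of 70 positive) and -0.10 on HF+SFC+ALA (5 positive). For HF+SFC+ALA against HF it was 0.12 at 4 h (69 positive) and -0.13 at 24 h (5 positive). The summed signal of 8 slow fibre markers (such as Myh7, Tnnt1 and Tnni1), none at the floor in all pools, was 91697, 67671 and 101822 at 4 h (Control, HF, HF+SFC+ALA) and 78299, 101606 and 73591 at 24 h. It was thus lowest at 4 h and close to its highest at 24 h on the HF diet. The sum of the 9 skeletal muscle markers was likewise lowest in the HF pool at 4 h (388093) and highest in the HF pool at 24 h (449176). The HF pool at 4 h, which enters 3 of the 7 pairs, also had the actin ratio of 1.52. The part of any of these measures in the members' pattern was not tested.

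**Figure D4:**
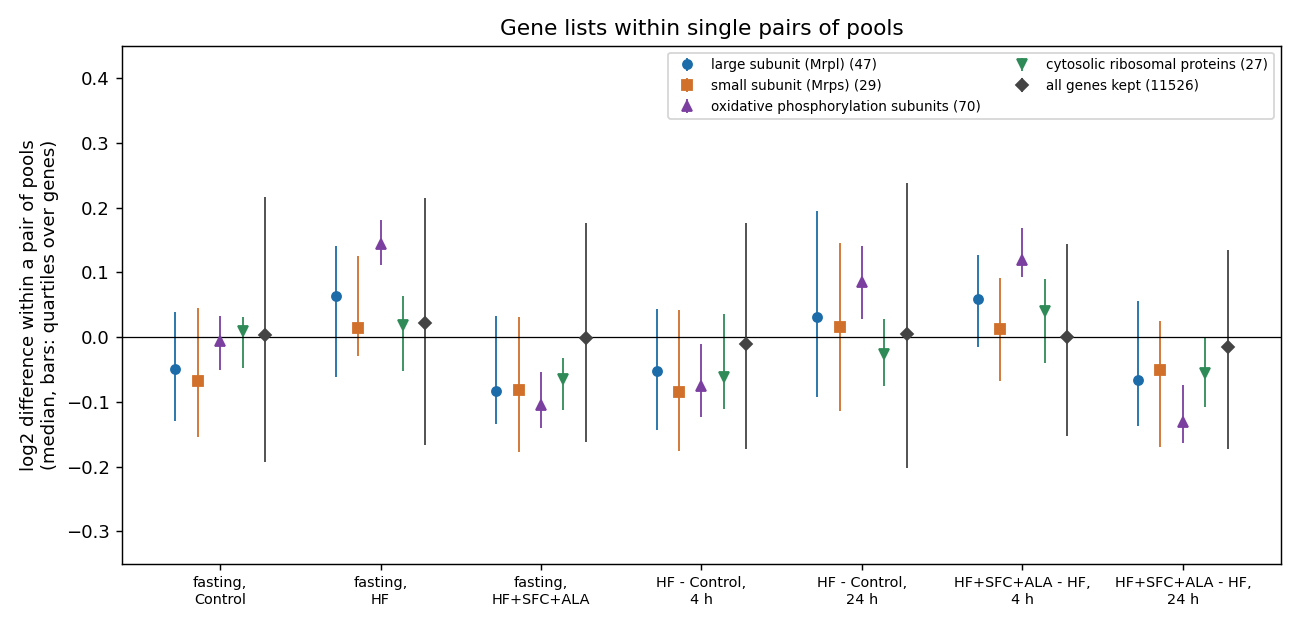
Median log2 difference in each single pair of pools (points, with quartiles over genes as bars). The lists are the large and small subunit genes, the oxidative phosphorylation subunits, cytosolic ribosomal proteins and all genes kept. The cytosolic list leaves out genes named Rps followed by digits alone. Over the 7 pairs the medians lie between -0.083 and 0.064 for the large subunit and between -0.084 and 0.016 for the small subunit, and those of the oxidative phosphorylation subunits between -0.13 and 0.14.

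No gene of the wider machinery of mitochondrial protein synthesis passed the test. Of the 4 mitoribosome proteins under other symbols (Dap3, Ptcd3, Chchd1 and Gadd45gip1), 11 translation factors, 24 assembly factors, 16 mitochondrial aminoacyl-tRNA synthetases and 21 RNA handling genes, 0 passed in any of the 3 comparisons by limma. Median ranges over the pools were 1.18-fold, 1.26-fold, 1.35-fold, 1.42-fold and 1.28-fold for these lists in that order. At an unadjusted p under 0.05 they held 1, 0, 2, 2 and 4 genes on fasting, 1, 2, 1, 1 and 4 for HF against Control, and 0, 0, 0, 1 and 0 for the supplements, where 17.7%, 14.7% and 5.08% of all genes kept did so. Dap3, a GTP-binding small subunit protein, differed by -0.23 ± 0.088 between HF and Control (limma adjusted p = 0.282). Polrmt, the mitochondrial RNA polymerase, differed by 0.29 ± 0.074 on fasting (limma adjusted p = 0.0855). Tfam, which packages mitochondrial DNA, differed by 0.19 ± 0.071 in that comparison (limma adjusted p = 0.203).

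Among 11 biogenesis factors, 1 passed, on fasting, where 2.41% of all genes kept did so. Ppargc1a, the coactivator that drives mitochondrial biogenesis, read 2991, 2515 and 2314 at 4 h (Control, HF, HF+SFC+ALA) and 978, 1798 and 1239 at 24 h, and fell by 1.0 ± 0.17 on the log2 scale (limma adjusted p = 0.0212, negative in 3 of 3 pairs). Esrra, the estrogen-related receptor alpha, differed by -0.32 ± 0.078 (limma adjusted p = 0.0696). Of the 11 factors, 7 were higher at 24 h, with a median difference of 0.12. At an unadjusted p under 0.05, 4 were higher and 3 lower (63.6%, against 17.7% of all genes kept). Myc differed by 0.52 ± 0.17, Pprc1 by 0.45 ± 0.13 and Gabpa by 0.20 ± 0.077 (limma adjusted p = 0.153, 0.112 and 0.221). No oxidative phosphorylation subunit (70 kept) and none of the 27 listed cytosolic ribosomal proteins kept passed in any of the 3 comparisons. Genes named Rps followed by digits alone were not in that list and were not counted.

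Probe sets of the same gene did not always move together. The 76 members had 156 probe sets, 132 of them above the filter, and 33 members had several above it. All of a gene's probe sets shared 1 sign in 20 of the 33 for fasting, in 9 for the HF diet and in 12 for the supplements. The median gap between a gene's probe sets was 0.17, 0.29 and 0.22 on the log2 scale.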

How the data were processed

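Each probe set has 1 deposited linear intensity per array, made by the authors with MAS5, per the submitters' processing notes. Each array's trimmed mean was near 500, as computed from the deposited values. Probe sets were named through the platform annotation (34945 with 1 symbol, 932 with several, 9160 with none listed). Signals under the 30th percentile (26.4) were raised to it before log2, and genes with mean log2 signal above 5.88 were kept.

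Diet and fasting time entered an additive model in limma 3.58.1 (R 4.3.3; lmFit, eBayes with an intensity trend, 2 residual and 7.27 prior degrees of freedom). P-values were adjusted by Benjamini-Hochberg over 11526 genes, and intervals are 95% from the moderated t. The fit was tested on simulated data. Tables were made with pandas 2.3.3 and numpy 2.4.6, and plots with matplotlib 3.10.9, under Python 3.11.15.

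The members and all lists were chosen with earlier results of these data known. Named genes were every member past the threshold, then up to 8 higher and 8 lower with the largest smallest-pair difference of 1 sign, and genes chosen by role. The head-to-head pair, Mrpl45, Mrpl12 and Mrpl21 on fasting and the genes shown by sequence were chosen after their values were seen. Alternatives were quantile scaling, median centring, other filters, no floor or a pseudocount, other probe set choices, no trend, no second factor and leaving out each pool.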

Additional observations from a re-analysis of the deposited data

Results flagged for a closer look

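The members' median difference had opposite signs in pairs of pools under the same contrast, which is why these values stand out; the difference between pairs was not tested, and each pair is 1 pool against 1 pool. For 24 h against 4 h fasting, the median on HF (0.057) minus that on Control (-0.056) was 0.11, and that on HF+SFC+ALA (-0.082) minus that on HF was -0.14. For HF against Control, the median at 24 h (0.027) minus that at 4 h (-0.058) was 0.085. For HF+SFC+ALA against HF, the median at 24 h (-0.052) minus that at 4 h (0.032) was -0.084. These 4 values share pools, the HF pools above all.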

How the results depend on the processing

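Fasting was compared within diets, and diets within fasting times, in the model; the labels carry no replicate numbers to pair pools by. The fasting count of members (1, Mrpl41) was 0 with quantile normalization, median centring, no filter, no floor, the mean over probe sets, probe sets without a suffix, no intensity trend and without the other factor. It was 0 to 1 when a pool was left out, 0 without either HF+SFC+ALA pool. The HF against Control count (0) was 0 to 1 on leaving out a pool, 1 without the Control pool at 4 h. Over all genes kept, the fasting count (278) was 0 without the filter (2026 at an unadjusted p under 0.05), 18 with the mean over probe sets, 172 without suffixed probe sets, 0 without the trend (1639 unadjusted), 60 without the other factor and 59 (without either HF+SFC+ALA pool) to 455 (without Control at 4 h) on leaving out a pool. The HF against Control count (104) was 0 without the filter (1992 unadjusted), 1 with the mean over probe sets, 0 without the trend (1348), 0 without the other factor (982) and 47 (without HF at 24 h) to 592 (without Control at 4 h) on leaving out a pool. The HF+SFC+ALA against HF count (0) was 6 with a filter at the 65th percentile and 0 to 109 (without Control at 24 h) on leaving out a pool. The large minus small subunit median for HF against Control (0.025) was 0.041 with quantile normalization, 0.082 with the mean over probe sets, 0.091 without suffixed probe sets and -0.0037 to 0.052 without a pool, and the members' median there (-0.016) was -0.077 to 0.034 without a pool. With the mean over probe sets the sign turned for fasting in Mrpl17 (-0.094), Mrpl47 (-0.18), Mrpl33 (0.10) and Mrps11 (0.032), for HF against Control in Mrps23 (-0.0020), Mrps11 (-0.074), Mrps9 (-0.050), Mrps5 (0.082) and Mrpl15 (0.054), and for HF+SFC+ALA against HF in Mrpl47 (-0.12). That mean takes in probe sets under the filter, such as the only other probe set of Mrpl33 (0.33 for fasting) and of Mrps11 (0.23). All probe sets of Mrpl17, Mrps23 and Mrps9 lay above the filter. Mrpl17 was -0.31 for fasting without suffixed probe sets. The cause of these shifts was not tested. With 1 pool per combination and 2 residual degrees of freedom, small differences lie within the error, and intensity values allow no depth-based interval.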
